A study of Mus musculus with 8 samples.

Results

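Hedgehog signalling was described here through 9 genes that carry or read the signal: the ligand Ihh, the receptors and ligand-binding proteins Ptch1, Hhip and Gas1, the transducer Smo, the regulator Sufu and the transcription factors Gli1, Gli2 and Gli3. They were chosen by name, as the rows of the deposited gene counts that carry these symbols, and make up 9 of 25239 symbols. All 9 had reads, and 6 of them (Smo, Ptch1, Ihh, Sufu, Gas1 and Gli3) had enough for the test across 12977 genes. Gli1, Gli2 and Hhip did not pass its filter on low counts and are given by their reads.

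Bulk RNA-Seq was performed on whole livers of 8 adult male mice, 4 control and 4 Smo-KO, 1 library per liver. All 8 were Smo tm2Amc/J mice on the C57Bl6/J background, which carry floxed Smo alleles (Smo fl/fl), so the control mice carry them too although their samples are labelled WT. All were fed the CDA-HFD, a choline-deficient, amino acid-defined diet rich in fat that produces steatohepatitis, for 6 weeks. A tail-vein injection 1 week before sacrifice delivered AAV8-TBG-Luciferase to control mice and AAV8-TBG-Cre Recombinase to Smo-KO mice. TBG is a promoter active in hepatocytes, and the other cells of the liver are not meant to lose Smo. From 8203299 to 9999732 reads per liver were counted on genes. Hepatocyte markers made up 39900 ± 2940 CPM (reads per 1000000 reads on genes, after scaling) in control livers and 37700 ± 1580 CPM in Smo-KO livers (SD, n = 4 each; 8 of 8 markers tested, Alb the most abundant), so the samples carried the markers of the labelled tissue.

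In the absence of ligand, Ptch1 keeps the membrane protein Smo inactive. A Hedgehog ligand that binds Ptch1, aided by co-receptors such as Gas1 and countered by the decoy receptor Hhip, releases Smo, which then frees the Gli factors from Sufu. Gli1, Ptch1 and Hhip are themselves transcribed in response to the pathway and are therefore used as its readouts. In liver, Ihh is a ligand made by hepatocytes, and stellate cells and cholangiocytes are known to respond.

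The question was how the other genes of the pathway stood once Smo had been targeted in hepatocytes, so Smo was examined first. Smo lies on GRCm38 chr6:29735503-29761365, plus strand. In the Smo tm2Amc allele, loxP sites flank exon 1, the piece that Cre removes. Exon 1 of the transcript Smo-201 (chr6:29735694-29736353, 1 of 12 exons) has 660 of its 3779 bases, or 17.5%, and holds 343 of the 2379 coding bases with the start codon. The deposited value is 1 count per gene, over every exon. It therefore does not measure this exon by itself, and a transcript that lacked exon 1 would still be counted through the other exons.

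None of the 4 Smo-KO livers reached the Smo level of the lowest control liver. It stood at 8.17, 8.49, 8.75 and 8.21 CPM in control livers 1 to 4, from 72 to 88 reads. In Smo-KO livers 1 to 4 it stood at 5.67, 3.93, 4.27 and 4.37 CPM, from 35 to 55 reads. The groups did not overlap, and Smo-KO mouse 1 lay nearest to the controls. The means were 8.40 ± 0.270 and 4.56 ± 0.765 CPM (SD, n = 4 each), so that 54.3% of the control level remained (exact permutation test, two-sided p = 0.0286, the smallest that 4 against 4 mice can give). The log2 fold change was -0.88 (SE 0.16, 95% interval -1.22 to -0.535), with an adjusted p of 0.0957 by edgeR's quasi-likelihood test and 0.00613 by DESeq2's Wald test. Left without Smo-KO mouse 1, the log2 fold change was -0.997 and the adjusted p by edgeR was 0.0266. In whole liver, fewer cells with the transcript and less of it per cell cannot be told apart, and neither can Smo of hepatocytes and Smo of other cells.

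Among cell type markers, those of lymphocytes were lower in Smo-KO livers, as Smo was, but did not follow its order from liver to liver. Their summed level was 46.4, 42.3, 37.5 and 49.9 CPM in control livers 1 to 4 and 21.6, 18.4, 31.6 and 30.8 CPM in Smo-KO livers 1 to 4. The sums did not overlap and averaged 44.0 ± 5.38 and 25.6 ± 6.58 CPM, 58.2% of control (exact permutation test, two-sided p = 0.0286). Of 6 markers, 5 were tested, and Cd3e, Cd3g, Cd8a and Nkg7 were lower at an unadjusted p under 0.05 by edgeR but none at an adjusted p. Nkg7, a granule protein of killer cells, was the most abundant (14.5 and 7.59 CPM). None of the 6 was at 0 reads over the 8 livers. The part of these cells in the Smo values was not tested.

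The other cell types gave sums that overlapped between the groups. Stellate cell and fibroblast markers summed to 1110 and 1040 CPM (exact permutation test, two-sided p = 0.486; 9 of 9 tested, Col3a1 the most abundant), and cholangiocyte markers to 149 and 177 CPM (exact permutation p = 0.429; 5 of 6 tested, Spp1 the most abundant). Sinusoidal endothelial markers summed to 172 and 144 CPM (exact permutation p = 0.371; 6 of 6 tested, Clec4g the most abundant), and macrophage markers to 842 and 852 CPM (exact permutation p = 0.914; 7 of 7 tested, Clec4f the most abundant). Among the macrophage markers, Trem2, a receptor of lipid-associated macrophages, lay higher in Smo-KO livers by more than this sum did. It stood at 33.6 and 56.5 CPM (log2 fold change 0.75, unadjusted p = 5.54e-05 by edgeR, not past the threshold once adjusted). The part of Trem2 in the values of the members was not tested. Hepatocyte markers overlapped too (exact permutation p = 0.257). In 3 of these lists, 1 marker each was lower in Smo-KO livers at an unadjusted p under 0.05 by edgeR's quasi-likelihood test. They were Cps1 of hepatocytes (919 and 733 CPM, log2 fold change -0.326), Col1a1 of stellate cells and fibroblasts (191 and 148 CPM, -0.365) and Pecam1 of sinusoidal endothelium (18.2 and 12.9 CPM, -0.496). None of them passed once adjusted, and their part in the values of the members was not tested. Skeletal muscle markers were near the limit of detection at 1.36 and 0.323 CPM (exact permutation p = 0.0857; none of 4 tested, Acta1 the most abundant, Myh4 at 0 reads in all 8 livers).

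**Figure D1:**
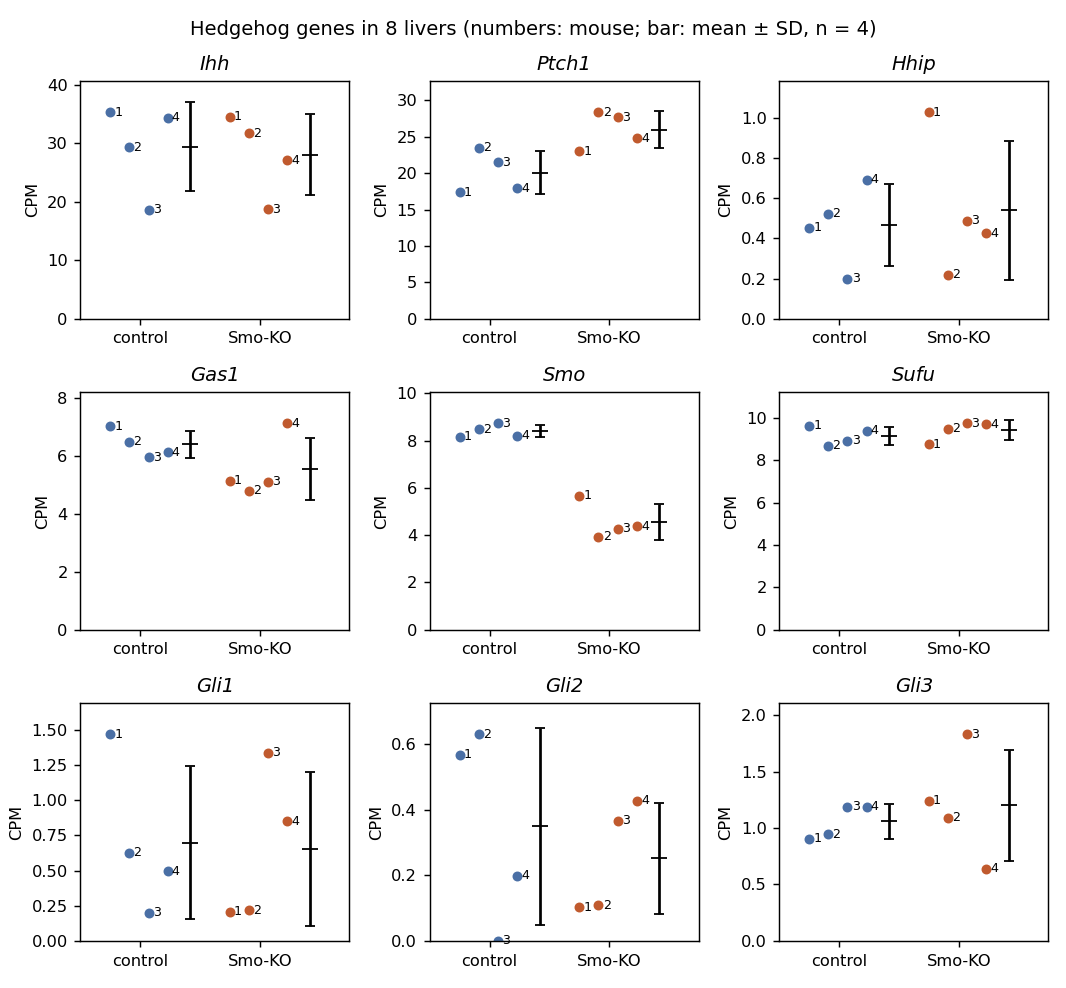
Level of each of the 9 Hedgehog genes in CPM (y axis, from 0, scaled separately per gene) in control (blue) and Smo-KO (orange) livers. Each point is 1 liver, numbered by mouse, and the black bar is the mean with its SD (n = 4). Smo is the gene whose groups are apart (8.17 to 8.75 against 3.93 to 5.67 CPM), Ptch1 lies higher in 3 of 4 Smo-KO livers than in any control liver, and mouse 3 of each group has the lowest Ihh.

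By the count of genes, Smo was the 1 member of 9 whose groups did not overlap, against 7.37% of the 12977 genes tested. Unadjusted p-values under 0.05 by edgeR were found for 2 of the 6 tested members (Smo and Ptch1), against 13.8% of all genes (1797 genes). No member passed an adjusted p of 0.05 by edgeR's quasi-likelihood test (0 of 6), and neither did any other gene (0% of 12977). By DESeq2's Wald test, 1 of the 5 members with an adjusted p passed, Smo, against 1.36% (163 of 11967 genes). Over all genes tested, the log2 fold changes had a median of -0.000845.

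Ihh was the most abundant member for its length and did not separate the groups. It lies on chr1:74945315-74951672, minus strand. It stood at 35.3, 29.3, 18.6 and 34.3 CPM in control livers 1 to 4 and at 34.5, 31.7, 18.7 and 27.1 CPM in Smo-KO livers 1 to 4. Mouse 3 was the lowest of each group, and the ranges covered each other almost entirely. The means were 29.4 ± 7.65 and 28.0 ± 6.95 CPM (exact permutation test, two-sided p = 0.771), with a log2 fold change of -0.06 (SE 0.21, 95% interval -0.51 to 0.38; adjusted p = 0.922 by edgeR). This spread was the widest beyond counting error among the members: the chi-square of the reads per degree of freedom was 19.7 in control and 14.8 in Smo-KO livers, where counting error alone gives about 1.

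Of the other ligands, Shh had 5 reads over all 8 livers and Dhh 31, so that Ihh, with 2157, supplied nearly all of the ligand reads. Of the 8 other genes for ligands and their release, 4 were tested, 2 lay higher and 2 lower, and none had an unadjusted p under 0.05 by edgeR. Hhat, which attaches palmitate to the ligands, had a log2 fold change of -0.23 (SE 0.30). Disp1, which exports them, had -0.11 (SE 0.23), and Scube3, a secreted release factor, 0.39 (SE 0.33; adjusted p = 0.645).

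Ptch1, the receptor that restrains Smo and a readout of the pathway, averaged higher in Smo-KO livers, with overlap. It lies on chr13:63508328-63573598, minus strand. It stood at 17.4, 23.5, 21.5 and 17.9 CPM in control livers 1 to 4 (153 to 224 reads) and at 23.0, 28.4, 27.7 and 24.8 CPM in Smo-KO livers 1 to 4 (223 to 260 reads). In 3 of 4 Smo-KO mice it exceeded every control, and Smo-KO mouse 1 lay just below control mouse 2. The means were 20.1 ± 2.93 and 26.0 ± 2.50 CPM, a ratio of 1.30 (exact permutation test, two-sided p = 0.0571). The log2 fold change was 0.37 (SE 0.12, 95% interval 0.11 to 0.63), with an unadjusted p of 0.00965 and an adjusted p of 0.234 by edgeR's quasi-likelihood test and 0.185 by DESeq2's Wald test. With 1 mouse left out, the exact permutation p ran from 0.0286 (without control mouse 2, the only control that reached the Smo-KO range) to 0.0857.

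Gas1 and Hhip bind ligand at the cell surface, as a co-receptor and a decoy. Gas1 (chr13:60174405-60177365, minus strand) stood at 7.03, 6.50, 5.96 and 6.13 CPM in control mice and at 5.15, 4.80, 5.12 and 7.14 CPM in Smo-KO livers 1 to 4. Smo-KO mice 1 to 3 lay below all controls and Smo-KO mouse 4 above all of them. The means were 6.41 ± 0.473 and 5.55 ± 1.07 CPM, with a log2 fold change of -0.20 (SE 0.17, 95% interval -0.57 to 0.17; adjusted p = 0.635 by edgeR). Without Smo-KO mouse 4, the log2 fold change was -0.35 and the groups did not overlap (exact permutation p of the CPM 0.0286, up to 0.400 without other mice). The Gas1 exons share 589 bases with Gm48488, a noncoding gene on the opposite strand.

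Hhip (chr8:79965851-80058006, minus strand) had 4, 5, 2 and 7 reads in control livers 1 to 4 and 10, 2, 4 and 4 in Smo-KO livers 1 to 4. The 18 and 20 reads gave a rate ratio of 1.17 between the groups (exact 95% interval 0.587 to 2.34, for counting error only), and a difference within that interval was not detectable at this depth. The exact permutation test on its CPM gave p = 0.771. The Hhip exons share 175 bases with Gm27820, a noncoding gene on the opposite strand.

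Of the other receptors and co-receptors, 5 of 6 were tested, 1 in each direction at an unadjusted p under 0.05 by edgeR. The lower one was Gpc3, a glypican that competes with Ptch1 for ligand. Gpc3 stood at 2.38, 2.94, 2.48 and 1.78 CPM in control livers 1 to 4 and at 1.34, 1.42, 1.71 and 1.28 CPM in Smo-KO mice, without overlap. Its log2 fold change was -0.74 (SE 0.25, adjusted p = 0.240 by edgeR). The co-receptors Boc and Cdon had -0.19 (SE 0.34) and -0.25 (SE 0.23).

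Of 11 genes known to regulate Smo or to act beside it, 10 were tested, 2 lay higher and 8 lower, and none had an unadjusted p under 0.05 by edgeR. Evc, a ciliary partner of Smo, averaged 15.6 ± 3.86 and 12.5 ± 0.938 CPM, a log2 fold change of -0.32 (SE 0.16, adjusted p = 0.400 by edgeR). Efcab7, which anchors Evc, had 0.33 (SE 0.30), and the arrestin Arrb2 0.15 (SE 0.11).

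Sufu, which holds the Gli proteins inactive, was the tested member with the smallest difference. It lies on chr19:46396896-46488804, plus strand. It stood at 9.64, 8.70, 8.94 and 9.40 CPM in control livers 1 to 4 and at 8.76, 9.49, 9.76 and 9.70 CPM in Smo-KO mice. The groups overlapped and averaged 9.17 ± 0.425 and 9.43 ± 0.458 CPM, a log2 fold change of 0.04 (SE 0.12, adjusted p = 0.920 by edgeR). The 95% interval, -0.23 to 0.31, leaves out a change as large as that of Smo. Its spread between mice did not exceed counting error, with a chi-square per degree of freedom of 0.184 and 0.209.

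The 3 Gli factors were scarce. Gli3 (chr13:15463235-15730026, plus strand), which acts mostly as a repressor when the pathway is off, had 8, 9, 12 and 12 reads in control livers 1 to 4 and 12, 10, 15 and 6 in Smo-KO livers 1 to 4. The means were 1.06 ± 0.153 and 1.20 ± 0.491 CPM, with overlap, and the log2 fold change was 0.16 (SE 0.34, 95% interval -0.57 to 0.89; adjusted p = 0.875 by edgeR). That interval does not reach down to the log2 fold change of Smo, -0.88. The Gli3 exons share 188 bases with Gm6556, a gene of the opposite strand.

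Gli1 (chr10:127329882-127341974, minus strand), an activator and the most used readout of the pathway, had 13, 6, 2 and 5 reads in control livers 1 to 4 and 2, 2, 11 and 8 in Smo-KO livers 1 to 4. Each group held a liver with 2 reads and a liver with more than 10. The 26 and 23 reads gave a rate ratio of 0.931 (exact 95% interval 0.507 to 1.70, counting error only; exact permutation test of the CPM, p = 0.914). Its exons share 62 bases with Arhgap9, a gene of the opposite strand with 1827 reads, and 265 with the antisense gene Gm47200, and the library kit named in the labels does not mark strand.

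Gli2 (chr1:118834132-119053619, minus strand), the main activator among the Gli proteins, had 5, 6, 0 and 2 reads in control livers 1 to 4 and 1, 1, 3 and 4 in Smo-KO livers 1 to 4. The 0 of control mouse 3 allows up to 3 reads, or 0.303 CPM. The 13 and 9 reads gave a rate ratio of 0.728 (exact 95% interval 0.275 to 1.84, counting error only; exact permutation test of the CPM, p = 0.571). The intervals of Gli1 and Gli2 take in both no difference and a level of 54.3% of control, the one measured for Smo, so neither could be told at this depth. The interval of Hhip stops at 0.587 but leaves out the spread between mice.

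Of the 15 other genes for the Gli factors and their processing, all were tested, 4 lay higher and 11 lower. At an unadjusted p under 0.05 by edgeR there was 1 in each direction. Prkaca, a catalytic subunit of protein kinase A, which phosphorylates the Gli proteins, averaged 105 ± 4.95 and 87.0 ± 10.2 CPM without overlap, a log2 fold change of -0.27 (SE 0.10, adjusted p = 0.261). Cul3, the scaffold of the ligase that degrades them, averaged 60.5 ± 5.32 and 69.5 ± 3.43 CPM, 0.20 (SE 0.09, adjusted p = 0.349). Gsk3b, another kinase of the Gli proteins, averaged 51.5 ± 3.08 and 45.7 ± 2.42 CPM without overlap, -0.17 (SE 0.09, adjusted p = 0.407).

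Of 17 reported Gli targets other than the members, 14 were tested, 8 lay higher and 6 lower. At an unadjusted p under 0.05 by edgeR there was 1, higher. Mycn, a driver of growth, had a log2 fold change of -0.50 (SE 0.28, adjusted p = 0.453), and Ccnd2, a cyclin, -0.22 (SE 0.15). Ccnd1, Spp1, Sox9 and Snai1 lay at -0.12, 0.29, -0.19 and -0.22, each with an SE from 0.16 to 0.22.

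**Figure D2:**
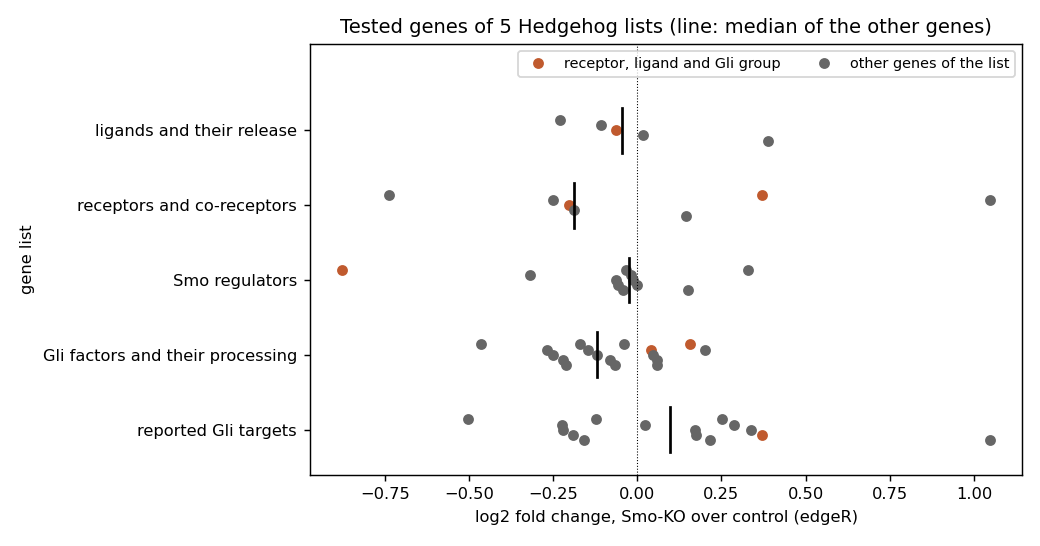
Log2 fold changes (x axis, Smo-KO over control, edgeR) of the tested genes in 5 Hedgehog gene lists (y axis), 1 point per gene, with the tested members in orange (Ptch1 is in 2 lists) and a line at the median of the other genes. Smo lies farthest to the left at -0.88, and the medians run from -0.19 to 0.10.

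Counted once each, the 5 lists hold 56 genes beside the members, and 47 were tested. None passed an adjusted p of 0.05 by edgeR, nor by DESeq2 where it gave one (lowest adjusted p by edgeR 0.163), 2 higher and 2 lower had an unadjusted p under 0.05, and 4 had groups that did not overlap. These shares, 8.51% each, stand beside 13.8% and 7.37% of all genes tested. The median log2 fold change of the 47 genes was -0.06, with 17 higher and 30 lower, against 6470 higher and 6507 lower of all genes.

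**Figure D3:**
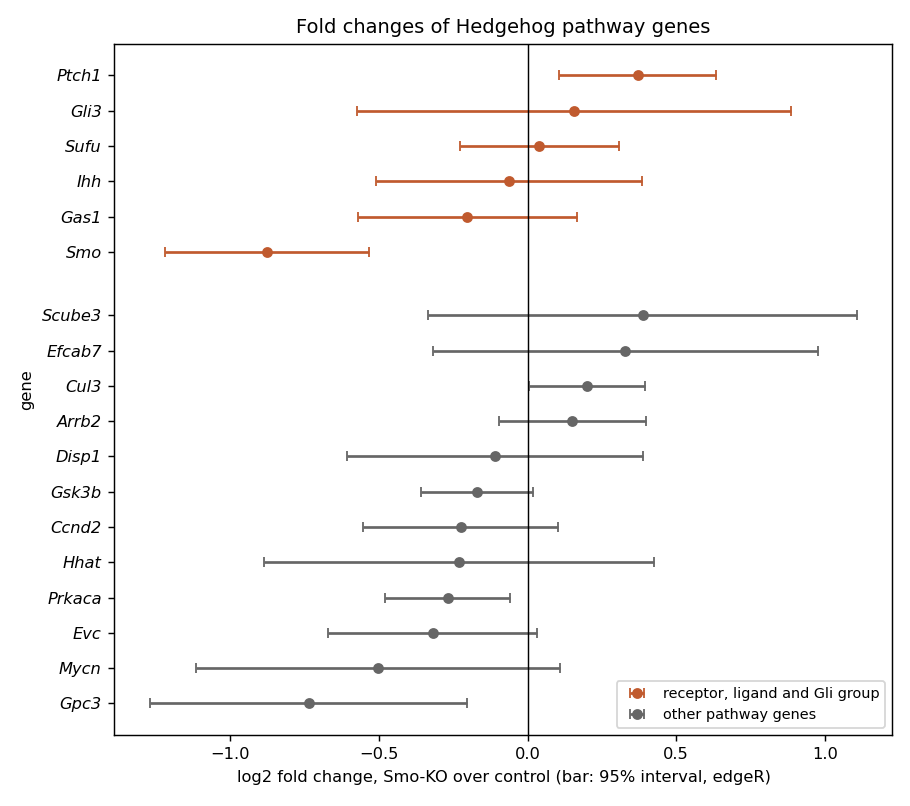
Log2 fold change (x axis, Smo-KO over control) with its 95% interval by edgeR for the 6 tested members (orange) and the other pathway genes named by rule that are reported here (gray), 1 gene per row. The intervals of Smo, Ptch1, Gpc3, Prkaca and Cul3 leave out 0, before any adjustment for the number of genes.

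Compared per length, Ihh stood well above the other members and the Gli factors and Hhip well below. In control livers Ihh had 11.9 CPM per kilobase of its longest coding transcript (RPKM), then Ptch1 2.60, Smo 2.22, Gas1 2.16, Sufu 2.03, Gli1 0.172, Gli3 0.129, Gli2 0.0525 and Hhip 0.0515 RPKM. Ihh stood above Ptch1 in every control liver, and Ptch1, Smo, Gas1 and Sufu overlapped each with its neighbour. Gli1 lay below Sufu without overlap, Gli1 and Gli3 overlapped, Gli3 lay above Gli2, and Gli2 and Hhip overlapped. In Smo-KO livers the order was Ihh 11.3, Ptch1 3.36, Sufu 2.08, Gas1 1.88, Smo 1.21, Gli1 0.161, Gli3 0.147, Hhip 0.0596 and Gli2 0.0378 RPKM. Smo had passed from the third place to the fifth and lay below Gas1, with which it had overlapped in control livers. It lay above Gli1 without overlap in both groups, and Ptch1 no longer overlapped the gene below it. Lengths came from GENCODE M21, and other isoforms would change the values.

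Each member was also set against Smo within the same liver, which removes the library size. The log2 ratio of the member's CPM plus 0.5 to that of Smo plus 0.5 was higher on average in Smo-KO livers for 8 of 8 members. The 8 ratios share the Smo values in their denominators and are not independent of each other, nor of the lower Smo. In 5 of them (Ptch1, Gli3, Hhip, Sufu and Gas1) the groups did not overlap (exact permutation p = 0.0286 each). The same held for 85.3% of the 12976 tested genes other than Smo, all higher in Smo-KO livers, and for 4 of the 5 tested members. Over those genes the median difference was 0.83, so the ratios mostly restate the lower Smo and the count of 5 says little about the members.

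There were 2.12, 2.77, 2.45 and 2.18 Ptch1 reads per Smo read in control livers 1 to 4 and 4.05, 7.22, 6.49 and 5.68 in Smo-KO livers 1 to 4. The lowest Smo-KO liver lay above the highest control, and the log2 ratio differed by 1.20, or 2.29-fold. This was the largest of the 8 differences, and 5.11% of tested genes had a larger one. For Sufu, the reads per Smo read were 1.18, 1.02, 1.02 and 1.14 in control and 1.55, 2.42, 2.29 and 2.22 in Smo-KO mice, a difference of 0.86 or 1.82-fold.

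For Gas1, they were 0.861, 0.765, 0.682 and 0.747 in control and 0.909, 1.22, 1.20 and 1.63 in Smo-KO mice, a difference of 0.62 or 1.54-fold. Control mice had fewer Gas1 than Smo reads in every liver, as had Smo-KO mouse 1, whereas the other 3 Smo-KO mice had more. The difference was 0.91 for Gli3, from 6 to 15 reads per liver, and 0.90 for Hhip, from 2 to 10. Ihh differed by 0.77 with overlap (exact permutation p = 0.0571), Gli1 by 0.75 (exact permutation p = 0.171) and Gli2 by 0.70 (exact permutation p = 0.114). None of these values shows that a member was unaltered.

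**Figure D4:**
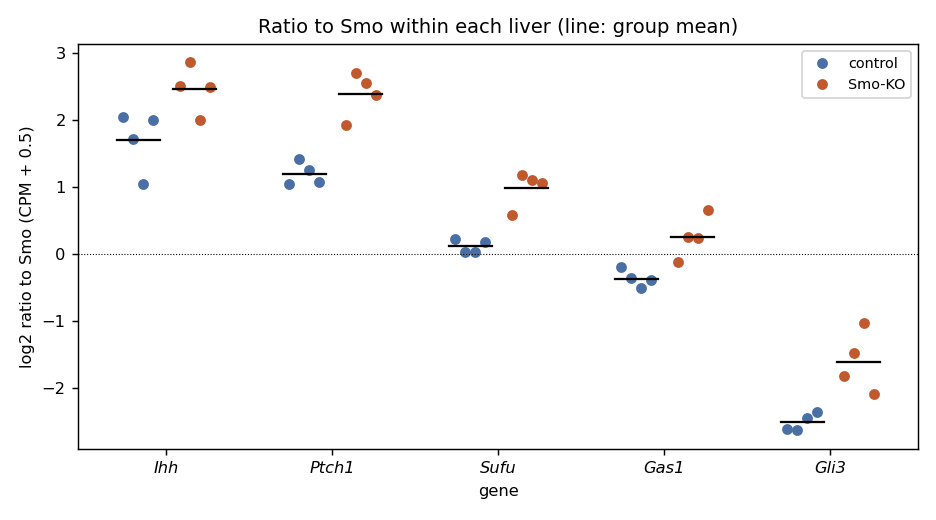
Log2 ratio of 5 members to Smo within each liver (y axis, CPM + 0.5) for control (blue) and Smo-KO (orange) mice, 1 point per liver and a line at the group mean. The groups are apart for Ptch1, Sufu, Gas1 and Gli3, as they are for 85.3% of tested genes, and overlap for Ihh, and Smo-KO mouse 1 is the lowest of its group for Ptch1, Sufu and Gas1.

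Of 12144 tested genes with a mean of at least 2 CPM and reads in every liver, those nearest to Smo over the 8 livers were found by the root mean square difference of log2 CPM over the gene's own control mean. Celsr1, a cadherin of planar cell polarity, was the nearest at 0.118, against a median of 0.664 over all genes compared. It stood at 10.7, 10.7, 11.4 and 8.31 CPM in control livers 1 to 4 and at 7.42, 4.80, 5.37 and 5.65 CPM in Smo-KO livers 1 to 4. Next came Chil1, a chitinase-like protein (0.159), Maml3, a Notch coactivator (0.177), Cd7, a surface protein of T and NK cells (0.187), and Ocstamp, a membrane protein of osteoclasts (0.201). All 5 had log2 fold changes from -0.84 to -0.69, and none passed an adjusted p of 0.05 by edgeR. Because they were picked for nearness to Smo, their likeness to it comes with the choice and is no separate result.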

How the data were processed

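RNA was sequenced from 8 whole livers, 4 per group. The authors deposited 1 list per liver of gene symbols and whole-number read counts. The submitters' processing notes name fastp, STAR 2.7.5, featureCounts 2.0.1 and the GRCm38 build, although the 5 closing entries of each list that name no gene have the form of another counter, htseq-count. The annotation, the counting options and the use of strand are not given in the sources used here. The closing entries, from 10.1% to 12.2% of all counts, were left out. Counts were scaled by TMM and tested on group alone with edgeR 4.0.16 (quasi-likelihood, filterByExpr, Benjamini-Hochberg over 12977 genes, threshold 0.05) in R 4.3.3, with DESeq2 1.42.0 (Wald test) as the alternative. The steps were tested on simulated data. Single values had exact permutation tests in scipy 1.17.1, over 70 assignments of 8 mice to groups. Intervals on reads are exact (Clopper-Pearson, 95%) and, like the floor of 3 reads (from 0.300 to 0.366 CPM), cover counting error only. Libraries of 1 group differed by far more than counting error (chi-square per degree of freedom from 7.76 to 17.6).

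The members, gene lists and markers were chosen with earlier results of these data known. Besides the members, the genes named are the 3 with the smallest p in each of 5 pathway lists, the 5 nearest to Smo and the most abundant marker of each of 7 cell type lists. A few of these genes are not reported here. Shh, Dhh, Boc, Cdon, Ccnd1, Spp1, Sox9 and Snai1 are given besides, as are the genes that share exonic bases with a member. Also given are the single lymphocyte markers, Trem2, Cps1, Col1a1 and Pecam1. All of these were chosen after their values were seen. The 8 ratios to Smo were not adjusted for their number. The marker list entry Tf was matched to Trf. Lengths and positions, those of exon 1 included, come from GENCODE M21, on GRCm38.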

Additional observations from a re-analysis of the deposited data

Results flagged for a closer look

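In 88 groups of 4 livers examined, 3 held a mouse far from the other 3 by Dixon's criterion, where chance gives about 4.4. Gas1 in Smo-KO mouse 4 was 7.14 CPM, against 4.80 to 5.15 CPM in the other Smo-KO mice. Gsk3b in control mouse 3 was 56.0 CPM, against 49.6 to 50.4 CPM in the other control mice. The library of Smo-KO mouse 3 was the smallest, with 8203299 reads counted on genes, and the other 3 of its group had from 9367795 to 9543675.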

How the results depend on the processing

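The direction of Smo held under every alternative. Its log2 fold change of -0.88 was also -0.88 without the low-count filter (adjusted p = 0.0385 by edgeR) and -0.87 by DESeq2 (adjusted p = 0.00613), past the threshold in both. Leaving out each mouse in turn, it ran from -0.997 to -0.81, with adjusted p-values from 0.0266 (without Smo-KO mouse 1) to 0.219. The number of genes called, 0 by edgeR, was 61 without the filter and 163 by DESeq2, and from 0 to 78 with 1 mouse left out (78 without Smo-KO mouse 1, 5 without control mouse 1 and 4 without Smo-KO mouse 3). Members called went from 0 to 1, Smo, without the filter, by DESeq2 and without Smo-KO mouse 1 (range 0 to 1). Pathway genes called stayed at 0 throughout. The cause was not tested.

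Livers with the same number correlated at 0.104, 0.187, 0.0611 and 0.113, not all over 0.1, and not every liver correlated best with its own number, so the numbers were not taken as pairs. With a replicate block, 8 genes were called and Smo had -0.89 (adjusted p = 0.0722). The SE of Ihh was 0.101 under the block, with a log2 fold change of -0.06 and an adjusted p of 0.786, and that of Ptch1 was 0.0918, with 0.38 and an adjusted p of 0.133.

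Directions that turned when 1 mouse was left out were those of members with overlapping groups: the log2 fold change ran from -0.10 to 0.37 for Gli3 and from -0.23 to 0.0861 for Ihh. The difference in CPM ran from -0.27 to 0.21 for Gli1, from -0.0684 to 0.33 for Gli3, from -0.0898 to 0.18 for Hhip and from -4.95 to 1.76 for Ihh. With a pseudocount of 0.1 CPM, the log2 ratio to Smo was 0.99 for Hhip (exact permutation p = 0.0571) and 0.82 for Ihh (exact permutation p = 0.0286). With any control left out, the exact permutation p of the ratio was 0.0571 for Gli3, Sufu and Gas1, as it was for Hhip without Smo-KO mouse 1, and their groups still did not overlap. Without Smo-KO mouse 3, that of Ihh was 0.0286. Depth limits Gli1, Gli2, Gli3 and Hhip, at no more than 15 reads in any liver.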
